A study of Homo sapiens with 12 samples.

Results

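The genes described here are the nuclear genes of oxidative phosphorylation, taken as every protein-coding gene in the deposited files whose symbol begins with NDUF, UQCR, COX followed by a digit or ATP5, or is SDHA, SDHB, SDHC or SDHD. The rule used names only, and it found 106 genes of 18650 coding genes, with 143 of the 23086 coding 3′ UTR intervals. By role there were 7 core subunits of complex I, 30 accessory subunits of complex I, 9 complex I assembly factors, 4 subunits of complex II, 9 of complex III, 19 of complex IV, 9 complex IV assembly factors, 17 of complex V and 2 read-through genes. The files carry an older nomenclature, and 20 members have been renamed since (ATP5I is now ATP5ME and ATP5G2 is now ATP5MC2), so the symbols of the files are used throughout.

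Oxidative phosphorylation is the route by which mitochondria turn the oxidation of nutrients into ATP. Complex I takes electrons from NADH and complex II takes them from succinate, complex III passes them to cytochrome c, complex IV hands them to oxygen, and complex V uses the resulting proton gradient to make ATP. Most subunits are encoded in the nucleus, made in the cytosol and imported, and dedicated assembly factors put the complexes together, while a few subunits come from mitochondrial DNA and are not members here. The nuclear transcripts are known for being abundant and long-lived, and for promoters that carry binding words of NRF1, ETS-family and YY1 factors.

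All cells were 22Rv1, a human prostate carcinoma line with luminal features, edited to express a C1111S form of SF3B1, the splicing factor subunit that pladienolide-type inhibitors bind. Every group carried that edit, DMSO cells included, and whether the edited line was 1 clone is not given in the sources used here. The 4 groups were WX-02-23 at 20 µM for 3 h, WX-02-43 at 20 µM for 3 h, pladienolide B (PladB, a splicing inhibitor) at 10 nM for 3 h, and the vehicle DMSO at 0.1% by volume, and each had 3 libraries. The stereoprobes WX-02-23 and WX-02-43 are small molecules known by code names. The assay was SLAM-seq, in which 4-thiouridine given at 100 µM for 1 h enters newly made RNA and, after alkylation, is read as C in place of T. T>C reads are those that the deposited files count as converted in this way, and the share of a gene's reads that are T>C reads is called its labelled share.

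Library totals ran between 24670716 and 42190854 reads, with 12333255 to 21417549 reads and 826774 to 2094424 T>C reads on coding genes. Markers of the prostate luminal lineage (KLK2, KLK3, FOXA1, HOXB13, KRT8, KRT18 and TMPRSS2) had reads in all 12 libraries, whereas the basal genes KRT5 and TP63, the T cell gene CD3E, the fibroblast gene COL1A2 and the endothelial gene VWF had none. The neuroendocrine gene SYP and the fibroblast gene COL1A1 had reads in all 12 libraries, at most 43.2 and 10.8 counts per unit of 1e6 coding reads (CPM). Whether the 3 libraries of a group were separate cultures is not in the labels, and the p-values cover only the variation among those 3, which may be technical. A library without 4-thiouridine was not among those analysed, so the part of the T>C reads that is sequencing error was not measured. The intervals of ATP5E, COX16 and both read-through genes overlap another gene on the same strand, and those of ATP5G1, ATP5L, COX11, COX15, NDUFA2, NDUFA4L2, NDUFC2, NDUFV2 and SDHC overlap a gene on the other strand, so their counts are uncertain. As bulk RNA, the values cannot tell fewer cells from less RNA per cell.

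Promoter words known from this gene family were looked up in the RefSeq promoters of GRCh38.p14, from 250 bases before to 50 bases after each gene's start, on both strands and with any overlap allowed. Of 85 members with a promoter in that table, 13 (15.3%) held the NRF1-type word CGCATGCG, which reads the same on both strands, against 2.88% of 15843 coding promoters. The ETS-type word CCGGAAGT was in 12 members (14.1%), against 6.19% of all promoters, and the YY1-type word AAGATGGC was in 12 members (14.1%), against 3.91%. A match is a description of the letters, not a binding site. The windows below are shown because they belong to members on which the PladB results turn, with the word in capitals (ACTTCCGG and GCCATCTT are the ETS-type and YY1-type words on the other strand). The first 5 belong to members whose T>C reads rose after PladB.
NDUFB4, chr3:120596167-120596196, plus strand: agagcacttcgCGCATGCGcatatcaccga
ATP5I, chr4:674335-674364, minus strand: gccgctgacggCGCATGCGtgcgcccagct
COX8A, chr11:63974590-63974619, plus strand: ccagctccagaACTTCCGGccagcgcagcc
UQCRQ, chr5:132866577-132866606, plus strand: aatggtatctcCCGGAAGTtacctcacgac
UQCR11, chr19:1605561-1605590, minus strand: tccaaccctcgCCGGAAGTtactgtaagtg
The other 5 belong to members whose labelled share fell after PladB.
UQCRC1, chr3:48609605-48609634, minus strand: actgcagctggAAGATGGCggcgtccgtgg
COX17, chr3:119677503-119677532, minus strand: gggcctccttgCGCATGCGctgaagggggc
ATP5G2, chr12:53676106-53676135, minus strand: ggcccgggtcaCGCATGCGctgagccttcc
ATP5J, chr21:25735155-25735184, minus strand: cactcaaagagCGCATGCGtacagagcaag
ATP5F1, chr1:111449451-111449480, plus strand: acttgtgagcgGCCATCTTggtcctgccct
Any of the 3 words was in 7 of 16 promoters of members with higher T>C reads, in 6 of 15 of members with a lower labelled share and in 19 of the 54 others.

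In DMSO cells the labelled share of these genes was low. Over the 97 members with at least 100 mean reads in DMSO, the median labelled share was 3.97% (interquartile range 2.56% to 6.14%), against 9.23% (5.05% to 16.0%) over 10007 coding genes with the same minimum, and 82 of the 97 members (84.5%) lay below the median of all genes. With at least 300 mean reads the medians were 3.93% over 93 members and 8.65% over all such genes. The subunit groups were alike, with medians of 4.83% for complex I core subunits, 3.74% for complex I accessory subunits, 4.22% for complex II, 3.21% for complex III, 3.50% for complex IV and 3.20% for complex V. The assembly factors were higher and close to the typical gene, at 9.75% for complex I (8 genes) and 9.36% for complex IV (9 genes).

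**Figure D1:**
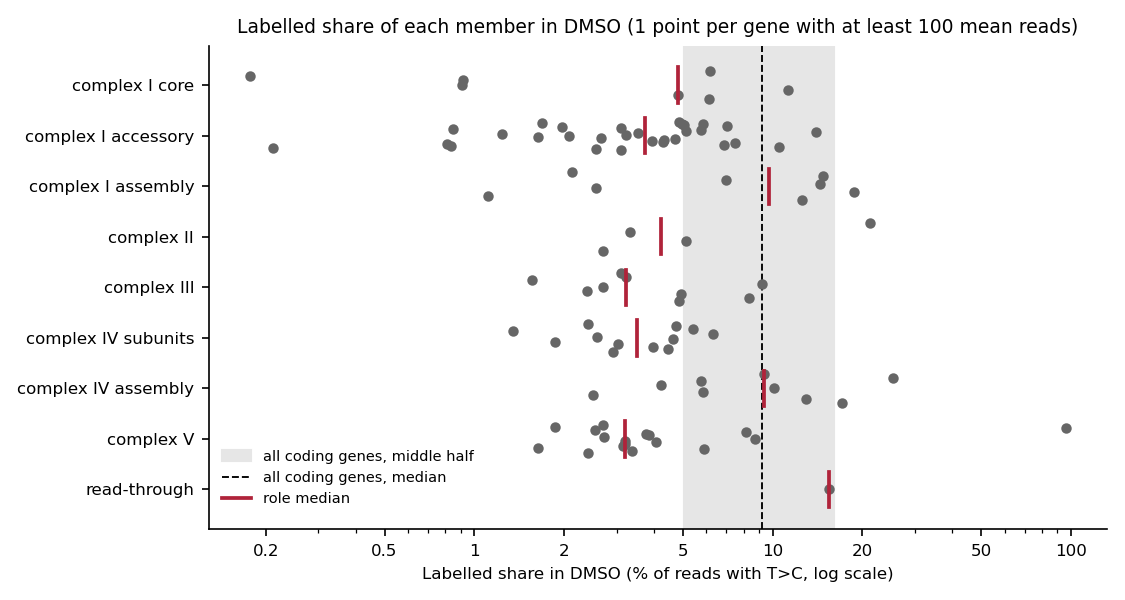
Labelled share in DMSO (percent of reads with T>C, log axis) of each member with at least 100 mean reads, by role; red bars mark role medians, the dashed line and grey band the median and interquartile range of all coding genes. Subunit medians lie between 3.20% and 4.83%, left of the all-gene median of 9.23%, and both assembly groups lie near it; the point at the far right is ATP5L2.

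Among members with at least 300 mean reads, the highest labelled share belonged to COX19, a copper-handling assembly factor of complex IV, at 28.4%, 26.3% and 20.6% in the 3 DMSO libraries. SDHD, a membrane anchor of complex II, followed with 22.6%, 21.8% and 19.6%, although 36.0% of its reads mapped to several places. NDUFAF2, a complex I assembly factor, had 26.4%, 8.53% and 19.6%, so its libraries spread widely and overlapped those of the other 2 genes. At the other end, NDUFV1, the complex I core subunit that binds FMN and NADH, had 0.168%, 0.349% and 0.0533%, and NDUFA11, an accessory subunit of the membrane arm, had 0.393%, 0.0564% and 0.144%. NDUFA3, another accessory subunit, had 1.29%, 0.982% and 0%. The reads of these genes cover different numbers of T positions at which a conversion can be seen. A read covered 23.9 T positions in COX19, 30.4 in SDHD and 19.5 in NDUFAF2, but 11.7 in NDUFV1, 10.9 in NDUFA11 and 4.23 in NDUFA3. Across 99 members the Spearman correlation of T positions per read with the DMSO labelled share was 0.36, and across 10683 coding genes it was 0.22. That of mean reads in DMSO with the same share was -0.28 and -0.35. Differences in share between genes, those between members and all genes included, therefore go along with both features. Labelled shares are compared between conditions and not between genes in what follows. ATP5L2, a near-copy of the complex V subunit gene ATP5L, stood apart from every other member, with 97.3%, 100% and 93.9% T>C reads in DMSO and 1.06 conversions per T>C read. How its reads were assigned against ATP5L was not tested, and its values are reported as uncertain.

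Summed over all 106 members, the pathway made up a larger part of coding reads in PladB cells and had a smaller labelled share. Both stereoprobe groups were close to DMSO. The members made up 3.02% ± 0.0588 of coding reads in WX-02-23 cells, 3.08% ± 0.0318 in WX-02-43 cells, 3.59% ± 0.140 in PladB cells and 3.02% ± 0.139 in DMSO cells (SD, n = 3 each). Of the coding T>C reads they made up 1.40% ± 0.0236, 1.46% ± 0.0257, 2.08% ± 0.149 and 1.38% ± 0.128 in the same order of groups. The 3 PladB libraries lay above all 9 others in both quantities, and the PladB mean was 1.19 and 1.51 times the DMSO mean.

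The pooled labelled share of the members was 4.48% ± 0.109 in WX-02-23 cells, 4.30% ± 0.155 in WX-02-43 cells, 3.14% ± 0.199 in PladB cells and 4.31% ± 0.453 in DMSO cells. PladB libraries had 3.36%, 3.11% and 2.97%, all below the DMSO libraries with 4.67%, 3.80% and 4.46%. That was a ratio of 0.730 for the members, beside 0.576 for all coding genes, whose pooled share was 5.44% ± 0.191 in PladB cells and 9.45% ± 0.430 in DMSO cells. By role, the ratio of PladB to DMSO was 0.847 for complex I core subunits, 0.788 for complex I accessory subunits, 0.777 for complex III, 0.783 for complex IV, 0.684 for complex V and 0.661 for complex I assembly factors. It was smallest for complex IV assembly factors (3.93% ± 0.285 in PladB and 7.51% ± 0.845 in DMSO cells, ratio 0.524) and for complex II (3.41% ± 0.235 in PladB and 6.23% ± 0.821 in DMSO cells, ratio 0.547). As the members were chosen with earlier results known, no test is given for these sums.

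The number of conversions in a T>C read also differed between groups, for the members as for all genes. Members had 1.61 ± 0.0531 conversions per T>C read in WX-02-23 cells, 1.88 ± 0.0198 in WX-02-43 cells, 1.16 ± 0.0174 in PladB cells and 1.51 ± 0.0593 in DMSO cells. All coding genes had 1.99, 2.41, 1.38 and 1.81 in the same order. Among the 59 members with at least 20 T>C reads in every library, 22 were lower in all PladB libraries than in all DMSO libraries (34.8% of 3151 such genes were), and 0 were higher (0.571%). In WX-02-43 cells 17 of the 59 were higher than in every DMSO library (38.1%) and 0 were lower (0.444%), and in WX-02-23 cells 6 were higher (13.9%) and 1 was lower (2.22%). Between the probes, 11 were lower in WX-02-23 than in WX-02-43 cells (25.4%) and 2 were higher (0.857%). As shares of the 59 members these counts were 37.3% for PladB, 28.8% for WX-02-43 and 10.2% for WX-02-23, none of them far above the background. The deposited conversion count can be below the T>C read count of the same interval. Of 1164 values (a member in a library), 135 lay under 1, in 47 of the 100 members with T>C reads. A T>C read is therefore not always matched by a counted conversion, which bears on the T>C reads and labelled shares of those members, and the cause was not tested.

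**Figure D2:**
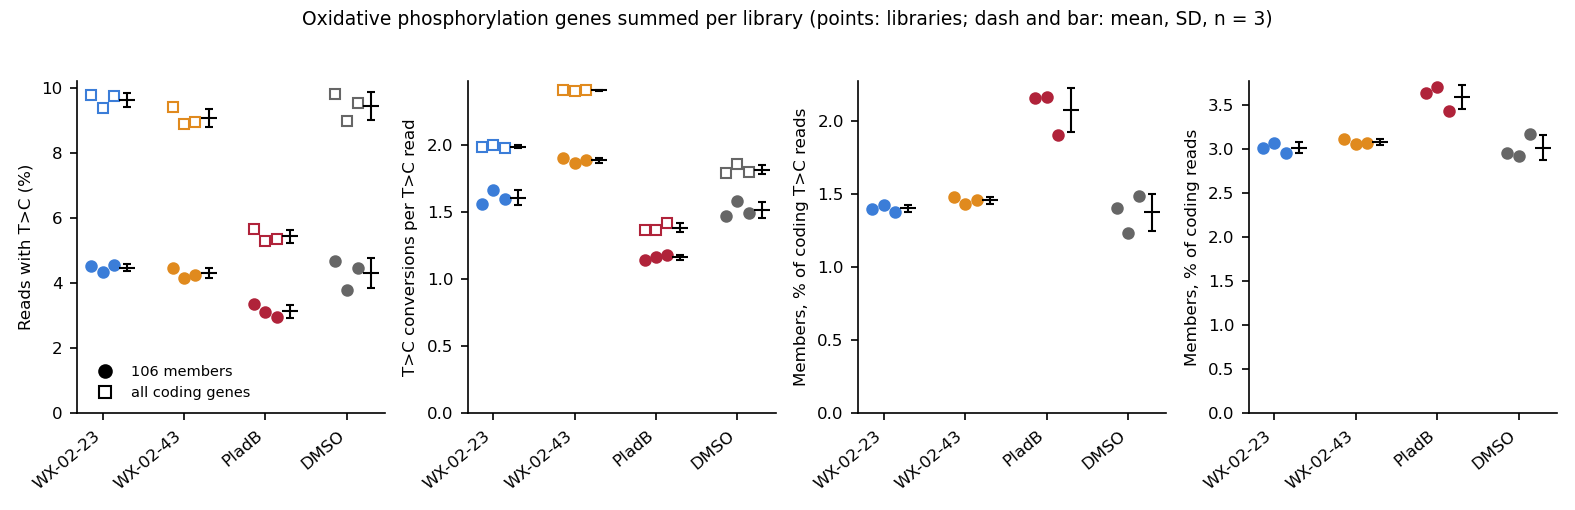
The 106 members summed in each library: reads with T>C (percent), conversions per T>C read, and the members' part of coding T>C reads and of coding reads (percent), with all coding genes as open squares in the first 2 panels; points are libraries, and dash and bar give mean and SD (n = 3). PladB libraries are lowest in labelled share (3.14% against 4.31% in DMSO) and conversions (1.16 against 1.51) and highest in both shares of reads.

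Changes of single genes were tested with edgeR's quasi-likelihood test over all coding genes with enough reads, with Benjamini-Hochberg adjustment and a call at an adjusted p under 0.05. All comparisons with DMSO share the same 3 DMSO libraries. In total reads 100 members entered the test. The 6 others are isoform genes known from muscle, testis, lung or other tissues: COX4I2, COX6A2, COX7A1, COX7B2 and COX8C had 0 reads in all 12 libraries, and COX6B2 had 12 reads in 1 WX-02-23 library. NDUFA4L2, a hypoxia-linked relative of NDUFA4, had 1434 reads in all and entered the test of total reads only, which left 99 members in the tests of T>C reads and of labelled share.

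After PladB, total reads of the pathway rose in nearly every complex, relative to the other coding reads of the same library. The scaling sets each library against its own coding reads, so a rise in RNA per cell was not measured. Of 100 members tested, 73 rose (13.9% of all genes tested rose) and 2 fell (16.3%). The median log2 change was 0.50 (interquartile range 0.35 to 0.64) for the members and -0.067 for all genes, and 93 of 100 members had an estimate above 0. In 74 members every PladB library lay above every DMSO library (19.1% of all genes), and in 3 every PladB library lay below (21.7%). With any single one of the 6 libraries removed, 61 of the 73 higher calls and both lower calls were still made, with no change of sign.

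Complex III and complex V rose most completely, with 9 of 9 and 16 of 17 members, although 56.1% of the reads of UQCRFS1, the Rieske iron-sulfur protein of complex III, mapped to several places. Complex IV followed with 11 of 13 tested, complex I core subunits with 6 of 7 and complex I accessory subunits with 23 of 30. Complex II rose in 2 of 4, and the assembly factors rose in 3 of 9 for each of complexes I and IV, with 1 complex IV assembly factor lower. In the catalytic head of complex V, ATP5B (chr12:57031959-57032106 in hg19, minus strand), which encodes the beta subunit and had the most reads of that complex, had 2405, 2620 and 2463 CPM in PladB cells, against 1821, 1564 and 1808 CPM in DMSO cells. All PladB values were above all DMSO values, with a log2 change of 0.53 (adjusted p = 1.8e-07). NDUFA4 (chr7:10971580-10973262, minus strand), a subunit of complex IV despite its name, had 1676, 1719 and 1469 CPM in PladB cells, against 1104, 1157 and 1378 CPM in DMSO cells, a log2 change of 0.42 (adjusted p = 0.000103). Again the groups did not overlap.

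In complex I, NDUFA11, NDUFV1 and NDUFA13 (an accessory subunit) were among the largest increases in total reads. NDUFA11 had 286, 296 and 224 CPM in PladB cells, against 143, 114 and 165 CPM in DMSO cells (log2 change 0.93, adjusted p = 3.98e-07). NDUFV1 had 182, 167 and 206 CPM in PladB cells, against 101, 91.9 and 112 CPM in DMSO cells (log2 change 0.87, adjusted p = 9.02e-06). NDUFA13 rose by 0.84 (adjusted p = 1.58e-06). The groups were separate for NDUFA11 and NDUFV1, which also had the 2 lowest labelled shares in DMSO among the well-covered members. The other core subunits NDUFS7, NDUFS8 and NDUFV2 rose by 0.78, 0.72 and 0.71 on the log2 scale, while NDUFS1, the largest core subunit, had an estimate of 0.26 and was not called (adjusted p = 0.194). Of the assembly factors, NDUFAF3 rose with a log2 change of 0.56 (adjusted p = 2.36e-05), and NDUFAF5, at 23.7, 28.1 and 19.1 CPM in PladB cells against 11.2, 8.01 and 17.4 CPM in DMSO cells, rose by 0.95 (adjusted p = 0.0416). The NDUFAF5 call was lost when single libraries were left out (adjusted p up to 0.187).

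Complex II, which is also the succinate dehydrogenase of the citric acid cycle, rose in 2 of its 4 subunits. SDHB, its iron-sulfur subunit, had 170, 183 and 152 CPM in PladB cells, against 126, 109 and 148 CPM in DMSO cells (log2 change 0.40, adjusted p = 0.0249), and the 2 groups did not overlap. SDHC, a membrane anchor, rose by 0.37 (adjusted p = 0.00501), with 25.2% of its reads mapping to several places. The flavoprotein gene SDHA (0.39, adjusted p = 0.0851) and SDHD (0.16, adjusted p = 0.455) were not called, and neither SDHB nor SDHC kept its call in every fit without 1 library. The T>C reads of SDHA were too few to follow, with 14, 1 and 0 in PladB cells, against 56, 0 and 26 in DMSO cells.

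The 2 members with fewer total reads after PladB were COX10 and ATP5J2-PTCD1. COX10 (chr17:14110531-14111996, plus strand) encodes the farnesyltransferase that makes heme O, a precursor of the heme A of complex IV. It had 5.34, 10.4 and 6.62 CPM in PladB cells, against 19.7, 32.4 and 23.7 CPM in DMSO cells, with no overlap (log2 change -1.76, SE 0.31, adjusted p = 1.85e-05). ATP5J2-PTCD1 is a read-through gene whose interval is shared with PTCD1, so its reads may belong to PTCD1. It had 21.1, 24.3 and 32.0 CPM in PladB cells, against 55.6, 55.2 and 45.8 CPM in DMSO cells (log2 change -1.02, adjusted p = 0.000111).

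In T>C reads, scaled to the T>C reads of each library, 22 of 99 members rose after PladB (4.72% of all genes tested rose) and 2 fell (5.9%). The median log2 change was 0.52 for the members and -0.36 for all genes, and 69 members had an estimate above 0. In 36 members every PladB library lay above every DMSO library (10.4% of all genes), and in 8 every PladB library lay below (17.4%). This split depended on the scale. When T>C reads were scaled to all reads of a library, 7 members were higher (ATP5I, ATP5L2, COX4I1, NDUFA2, NDUFB4, NDUFS5 and UQCRB) and 10 were lower (ATP5B, ATP5G2, ATP5J, ATP5SL, COX10, COX19, COX5A, NDUFV3, SDHC and UQCR10). The median of all genes was then -1.16, that of the members was -0.29, and 36 members had an estimate above 0. A rise in T>C reads below is therefore one relative to the other newly made RNA of the same library.

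These increases were spread over complexes I, III, IV and V. In complex I they included NDUFS3 among core subunits, NDUFA1, NDUFA2, NDUFB4, NDUFC1 and NDUFS5 among accessory subunits and NDUFAF1 among assembly factors. Complex III had UQCRB, UQCR11 and UQCRQ, complex IV had COX4I1, COX5B, COX6A1, COX7C and COX8A with the assembly factor COX16, and complex V had ATP5G1, ATP5G3, ATP5I, ATP5J2 and ATP5L2. Complex II had 0 of 4, with edgeR estimates of -1.63 for SDHA, 0.44 for SDHB, -0.999 for SDHC and 0.75 for SDHD (the last with an unadjusted p of 0.0203). Of the 22 members, 21 also rose in total reads, and 0 were called lower in labelled share. With any single library removed, 13 of the 22 were still called, and ATP5J2, COX16, COX5B, COX6A1, COX7C, NDUFA1, NDUFAF1, NDUFC1 and UQCRQ were not. The reads of COX6A1 mapped to several places in 37.0% of cases, and COX16 shares its interval with the read-through gene SYNJ2BP-COX16, so both are uncertain.

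COX4I1 (chr16:85840109-85840609, plus strand) encodes subunit 4 of complex IV, a regulatory subunit. It had 1202, 859 and 1057 CPM among T>C reads in PladB cells, against 369, 203 and 458 CPM in DMSO cells. The groups were far apart, and the log2 change was 1.60 (SE 0.25, adjusted p = 1.15e-05). Its labelled share was 3.95%, 2.70% and 3.62% in PladB cells, against 3.05%, 1.85% and 3.57% in DMSO cells, so the shares overlapped (log2 change in odds 0.32, adjusted p = 0.50).

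NDUFS5 (chr1:39500169-39500308, plus strand), an accessory subunit of complex I, had 638, 902 and 473 CPM among T>C reads in PladB cells, against 142, 236 and 194 CPM in DMSO cells. Every PladB library was above every DMSO library (log2 change 1.82, SE 0.30, adjusted p = 3.38e-05). Its labelled share of 7.02%, 9.02% and 4.98% in PladB cells overlapped that of 4.98%, 6.69% and 5.84% in DMSO cells. ATP5I (chr4:666225-666288, minus strand), subunit e of complex V, which helps pair the enzyme into dimers, had 530, 484 and 487 CPM in PladB cells, against 138, 113 and 153 CPM in DMSO cells (log2 change 1.90, SE 0.31, adjusted p = 2.72e-05). Its labelled share was also above DMSO in every library, at 5.80%, 5.03% and 5.97% in PladB cells and 3.99%, 3.63% and 3.84% in DMSO cells, without being called (log2 change in odds 0.58, adjusted p = 0.19). ATP5I had 0.873, 0.707 and 0.892 counted conversions per T>C read in PladB cells, against 1.03, 0.944 and 1.11 in DMSO cells. In every PladB library some of its T>C reads therefore had no counted conversion. In complex III, UQCRB, which helps form the ubiquinone-binding site, had 735, 988 and 667 CPM in PladB cells, against 286, 274 and 304 CPM in DMSO cells (log2 change 1.47, adjusted p = 1.46e-05). NDUFB4, an accessory subunit of the complex I membrane arm, had 1349, 1323 and 1346 CPM in PladB cells, against 493, 296 and 627 CPM in DMSO cells (adjusted p = 1.4e-06). NDUFA2, another accessory subunit, and COX8A, a small subunit of complex IV, rose by 1.70 and 1.32 on the log2 scale, and in all 3 genes the groups were separate.

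The T>C reads of these members held about 1 counted conversion each after PladB. Over the 21 of the 22 members with T>C reads in every library of the pair, the median of the mean conversions per T>C read was 1.08 in PladB cells (0.824 to 1.39) and 1.27 in DMSO cells (1.03 to 2.10). The PladB mean was the lower one in 20 of the 21, and in 7 no PladB library reached the lowest DMSO value. The latter was also so in 34.8% of the 3151 coding genes with at least 20 T>C reads in every library. Fewer conversions after PladB were thus not particular to these members. COX4I1 had 1.03 ± 0.0053 conversions per T>C read in PladB cells and 1.28 ± 0.110 in DMSO cells (SD, n = 3 each). What part of these conversions was sequencing error was not tested.

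NDUFAF1 and the 2 lower calls rested on few T>C reads. NDUFAF1 (chr15:41679547-41679641, minus strand), an early complex I assembly factor, had 63, 96 and 57 T>C reads in PladB cells, against 11, 0 and 1 in DMSO cells. Its fitted log2 change was 5.19 (SE 1.66, adjusted p = 0.0357), and the call was lost with DESeq2 (adjusted p = 0.0935) and without any of 3 single libraries (DMSO replicates 2 and 3 and PladB replicate 2, adjusted p up to 0.129). NDUFV3 (chr21:44329132-44329773, plus strand), a small accessory subunit of complex I, had 8, 1 and 8 T>C reads in PladB cells, against 82, 84 and 86 in DMSO cells (log2 change -2.95, SE 0.93, adjusted p = 0.0331). Its total reads were not called (log2 change -0.18, adjusted p = 0.362), at 100, 90.7 and 84.1 CPM in PladB cells against 104, 100 and 107 CPM in DMSO cells. COX10 had 1, 9 and 0 T>C reads in PladB cells, against 69, 46 and 99 in DMSO cells (log2 change -3.36, SE 1.08, adjusted p = 0.0368). Both lower calls were lost when the fit held only the 2 groups (adjusted p = 0.15 for NDUFV3 and 0.226 for COX10). With single libraries left out, NDUFV3 kept its call in 1 of 6 fits (adjusted p up to 0.0821) and COX10 in 2 of 6 (up to 0.109), and COX10 also lost it with a plain sum of intervals.

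The labelled share fell in 19 of 99 members after PladB (11.1% of all genes tested) and rose in 0 (0.0281%) by edgeR, with 1 member (NDUFAF1) higher at an unadjusted p under 0.05. The median log2 change in the odds of a T>C read was -0.85 for the members and -1.30 for all genes, and 19 members had an estimate above 0. In 32 members every PladB library lay below every DMSO library, as in 32.5% of all genes, and in 2 every one lay above (0.945%). Of the 19 lower calls, 18 were of members with no call in T>C reads (the other was NDUFV3), and 17 were of members whose total reads rose. With any single library removed, 12 of the 19 calls were still made, and those of ATP5L, COX20, COX5A, COX7A2, NDUFA9, NDUFAB1 and SDHC were not.

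**Figure D3:**
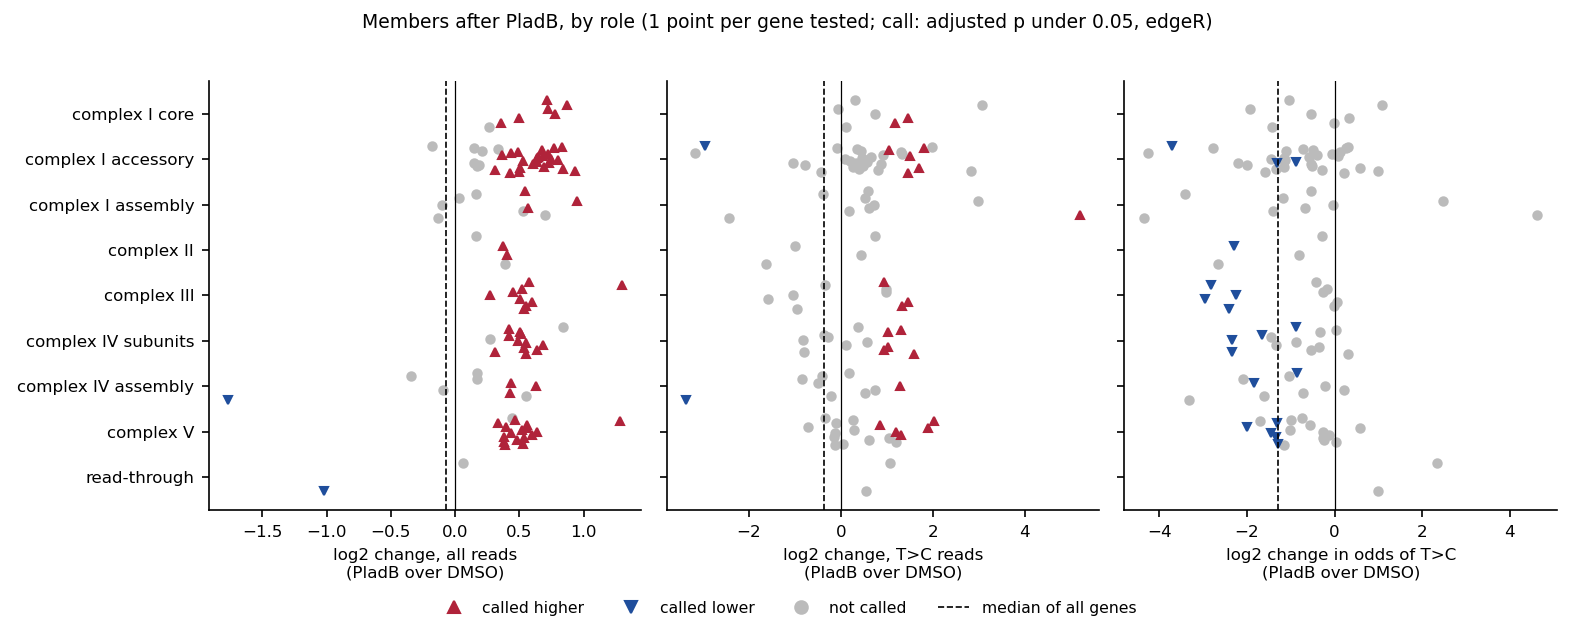
Log2 change of each member after PladB against DMSO, by role, in all reads, in T>C reads and in the odds of a read carrying T>C; triangles mark calls at an adjusted p under 0.05 and the dashed line the median of all genes. Total reads lie mostly right of 0 (73 of 100 called higher), T>C reads spread to both sides (22 higher, 2 lower) and the labelled share lies mostly left of 0 (19 lower, 0 higher).

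Complex III held 4 of these 19: the core proteins UQCRC1 and UQCRC2, the small subunit UQCR10 and UQCRHL, a gene very like the hinge protein gene UQCRH. UQCRC1 (chr3:48636432-48636560, minus strand) had a labelled share of 0.381%, 0.483% and 0.0985% in PladB cells, against 1.82%, 2.60% and 2.78% in DMSO cells. These came from 17, 16 and 3 T>C reads in PladB cells and 55, 69 and 76 in DMSO cells, with no overlap (log2 change in odds -2.97, SE 0.52, adjusted p = 0.00342). Its total reads rose at the same time, with 248, 244 and 222 CPM in PladB cells against 170, 170 and 163 CPM in DMSO cells (log2 change 0.51, adjusted p = 0.000898). UQCRC2 (-2.25, adjusted p = 0.00914) and UQCR10 (-2.42, adjusted p = 0.00569) fell likewise. UQCRHL had 0.311%, 1.03% and 0.308% in PladB cells, against 3.47%, 3.80% and 2.88% in DMSO cells (-2.82, adjusted p = 0.0103), and how reads were split between both genes was not tested (0% of UQCRHL reads and 0.0999% of UQCRH reads were listed as mapping to several places).

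In complex I the 3 lower calls were NDUFV3, NDUFA9 and NDUFAB1. NDUFV3 had 0.445%, 0.0812% and 0.692% in PladB cells, against 4.45%, 5.36% and 4.79% in DMSO cells (log2 change in odds -3.71, SE 0.58, adjusted p = 0.00159). Its counted conversions per T>C read were 0.5, 0 and 0.625 in PladB cells, and 0.573, 0.75 and 0.709 in DMSO cells. In every library of both groups some of its T>C reads thus had no counted conversion, so its labelled share is uncertain. NDUFAB1, the mitochondrial acyl carrier protein and the accessory subunit with the most reads, had 1.59%, 1.33% and 1.41% in PladB cells, against 3.14%, 2.48% and 2.28% in DMSO cells (-0.88, adjusted p = 0.0493). In complex II the call was SDHC, with 1.06%, 0.292% and 0.819% in PladB cells, against 3.87%, 3.90% and 2.24% in DMSO cells (-2.30, adjusted p = 0.0277). In labelled share the PladB and DMSO groups did not overlap for any of these genes.

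Complex IV had COX5A, COX7A2, COX7B and NDUFA4 with the assembly factors COX17 and COX20. COX17, the copper chaperone that supplies complex IV, had 1.30%, 1.70% and 0.713% in PladB cells, against 5.69%, 2.81% and 4.32% in DMSO cells (-1.85, SE 0.39, adjusted p = 0.00929). COX5A and COX7A2 each had a far lower value in PladB replicate 2 (0.199% and 0.087%) than in the other PladB libraries, and each call was lost when single libraries were left out (adjusted p up to 0.0967 and 0.108). NDUFA4 had 1.59%, 1.31% and 1.08% in PladB cells, against 2.65%, 2.23% and 2.34% in DMSO cells (-0.89, adjusted p = 0.0111).

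Complex V had ATP5B, ATP5F1, ATP5G2, ATP5J and ATP5L, and 26.4% of the ATP5F1 reads mapped to several places. ATP5B had 1.40%, 1.67% and 1.04% in PladB cells, against 3.64%, 2.41% and 3.86% in DMSO cells (-1.30, SE 0.23, adjusted p = 0.00375), while its T>C reads scaled to T>C reads had an estimate of 0.04 (adjusted p = 0.947). The 3 genes that encode the same c subunit of the proton-carrying ring gave different calls. ATP5G1 and ATP5G3 rose in T>C reads (1.31, adjusted p = 0.000288, and 1.21, adjusted p = 9.3e-05). ATP5G2 had an estimate of -0.13 in T>C reads (adjusted p = 0.829), and its labelled share was 1.11%, 0.902% and 1.70% in PladB cells, against 3.79%, 2.72% and 3.11% in DMSO cells (-1.44, SE 0.24, adjusted p = 0.00249). The difference between the 3 genes was not itself tested.

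**Figure D4:**
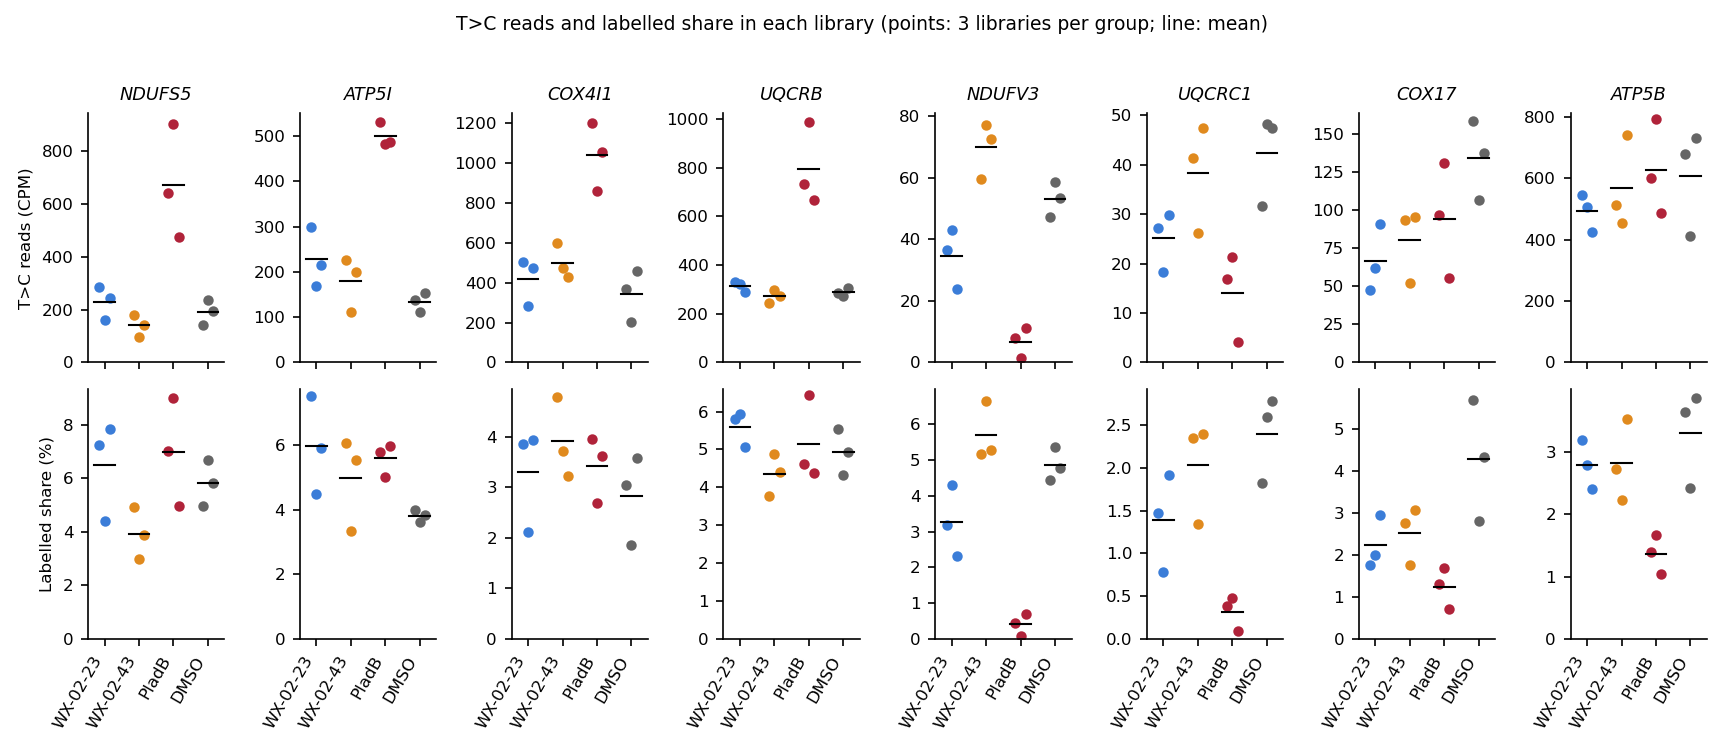
T>C reads (CPM among T>C reads, top) and labelled share (percent of the gene's reads, bottom) of 8 members in each library, with lines at the group means; every axis starts at 0. NDUFS5, ATP5I, COX4I1 and UQCRB are highest in PladB cells in the top row, and NDUFV3, UQCRC1, COX17 and ATP5B are lowest in PladB cells in the bottom row.

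Conversions per T>C read were also lower after PladB in most of the 19 members, with a median of means of 1.29 in PladB cells and 1.84 in DMSO cells, and with 16 of 19 lower. In 6 of the 19 no PladB library reached the lowest DMSO value. Among the 3151 coding genes with at least 20 T>C reads in every library, 34.8% did the same, so this was not particular to these members. For ATP5B the conversions per T>C read were 1.32 ± 0.0766 in PladB cells and 1.81 ± 0.0566 in DMSO cells (SD, n = 3 each). NDUFB7, an accessory subunit of complex I, had 3 T>C reads among 7528 reads in PladB cells and is given no fold.

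Other genes of the pathway were also followed. Of 42 electron carriers and further assembly factors tested, 14 rose (13.9% of all genes) and 1 (SDHAF2, -1.23) fell (16.3%) in total reads after PladB, with a median of 0.32. In T>C reads 3 of 41 rose (4.72% of all genes), among them CYCS, cytochrome c, by 0.95 (adjusted p = 0.016), and in labelled share FOXRED1, LYRM7 and TTC19, assembly factors of complexes I and III, fell (3 of 41, against 11.1% of all genes). Of 10 transcription regulators of the pathway tested, ESRRA, GABPA and PPRC1 fell in total reads by 0.62, 1.08 and 1.02 on the log2 scale (16.3% of all genes fell) and 0 rose. YY1 was the 1 of 10 that fell in labelled share (-1.61), a count near the 11.1% of all genes.

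The members differ from other genes in build. Their median was 4 exons and 12690 bases of gene span, against 8 exons and 28620 bases over all coding genes. After PladB the median change in labelled share was -0.63 for 28 members with 1 to 3 exons, -0.62 for 40 with 4 or 5, -1.03 for 15 with 6 to 8 and -1.23 for 16 with 9 or more. All coding genes had -1.05, -1.26, -1.21 and -1.43 in the same bins, so members lay above all genes in each. The median change in T>C reads over the same member bins was 0.66, 0.59, 0.26 and 0.22, against 0.086, -0.091, -0.24 and -0.63 for all genes. The Spearman rho of gene span with the change was -0.44 across 99 members and -0.24 across all genes in total reads, -0.28 and -0.25 in T>C reads, and -0.17 and -0.18 in labelled share. For exon number it was -0.13 across members and -0.23 across all genes in total reads, -0.17 and -0.20 in T>C reads, and -0.095 and -0.095 in labelled share. For mean reads in DMSO it was 0.19 across members and 0.29 across all genes in total reads. It was 0.19 and 0.26 in T>C reads, and 0.16 and 0.19 in labelled share. For the DMSO labelled share it was -0.36 and -0.25 in total reads, 0.10 and -0.22 in T>C reads, and 0.099 and -0.24 in labelled share. The DMSO libraries also enter each change. These are descriptions across genes of the same libraries, and genes are not independent replicates.

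WX-02-23 and WX-02-43 were given at the same dose and time, which allows each to be set against DMSO and both against each other. In T>C reads 0 of 99 members were called by edgeR for WX-02-23 against DMSO (0.224% of all genes, in either direction), for WX-02-43 against DMSO (0.0933%) or for WX-02-23 against WX-02-43 (0.0466%). At an unadjusted p under 0.05 there were 5, 5 and 4 members (4.54%, 3.81% and 2.85% of all genes). In 6 members every WX-02-23 library lay above every DMSO library (6.23% of all genes), and in 5 every one lay below (5.75%). For WX-02-43 these counts were 5 (6.57%) and 3 (5.36%). NDUFV1 was among the higher ones for both probes. Its T>C reads numbered 41, 30 and 47 in WX-02-23 cells and 23, 12 and 8 in WX-02-43 cells. DMSO cells had 3, 5 and 1, and neither change was called. In labelled share there were also 0 calls in the 3 comparisons (0.00936%, 0% and 0% of all genes), with 10, 4 and 3 members at an unadjusted p under 0.05 (3.38%, 3.13% and 2.78% of all genes). DESeq2 called 0 members in T>C reads for either stereoprobe against DMSO and 1, UQCRQ, lower in WX-02-23 than in WX-02-43. UQCRQ, a small complex III subunit (chr5:132203275-132204536, plus strand), had 127, 138 and 120 CPM among T>C reads in WX-02-23 cells, against 191, 310 and 251 CPM in WX-02-43 cells. The groups did not overlap, and edgeR gave a log2 change of -0.97 (95% interval -1.57 to -0.36) with an unadjusted p of 0.00247 and an adjusted p of 1.

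In total reads the only member called by edgeR was UQCRHL, higher in WX-02-23 than in DMSO cells (0.425% of all genes were called higher and 0.273% lower). At an unadjusted p under 0.05 there were 16 members (8.7% of all genes). It had 211, 241 and 217 CPM in WX-02-23 cells and 235, 194 and 172 CPM in WX-02-43 cells, against 100, 69.1 and 198 CPM in DMSO cells. DMSO replicate 3 lay far above the other DMSO libraries and among the WX-02-43 values. The log2 change was 0.86 (95% interval 0.48 to 1.24, adjusted p = 0.0127) for WX-02-23 and 0.71 (adjusted p = 0.176) for WX-02-43. Between both probes it was 0.16 (95% interval -0.22 to 0.53). The WX-02-23 call was lost with DESeq2 (adjusted p = 0.232), and on removal of DMSO replicate 1, DMSO replicate 2 or WX-02-23 replicate 2 (adjusted p up to 0.104), while without DMSO replicate 3 the change was 1.40.

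For WX-02-43 against DMSO, 0 of 100 members were called in total reads (0.0986% of all genes higher, 0.0683% lower), with 8 at an unadjusted p under 0.05 (5.86% of all genes). For WX-02-23 against WX-02-43, 0 of 100 were called (0.121% higher, 0.0304% lower), with 2 at an unadjusted p under 0.05 (5.51% of all genes). DESeq2 called 0 members in these 2 comparisons and 1, NDUFS4, lower in WX-02-23 than in DMSO cells. A missing call does not show that the values were alike, so the intervals matter. In total reads the 95% interval of the log2 change lay within 2-fold for 91 of 100 members for WX-02-23 against DMSO, for 94 for WX-02-43 against DMSO and for 96 between both probes. It lay within 1.5-fold for 82, 86 and 89. In T>C reads it lay within 2-fold for only 27, 25 and 26 of 99 members, and in labelled share for 25, 25 and 24. For most members a change of that size in new RNA could therefore not be excluded in these libraries. Even the well-covered COX4I1 ranged between 284 and 505 CPM among T>C reads in WX-02-23 cells, 427 and 599 in WX-02-43 cells and 203 and 458 in DMSO cells.

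PladB was given at 10 nM and the stereoprobes at 20 µM, so no direct comparison is made between them. Side by side, the median log2 change of total reads over the 100 members was -0.025 for WX-02-23, 0.024 for WX-02-43 and 0.50 for PladB, each against the same DMSO libraries. In T>C reads the medians were 0.10, 0.098 and 0.52, and in labelled share they were -0.00067, -0.0015 and -0.85.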

How the data were processed

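SLAM-seq reads of 12 libraries had been aligned and counted per 3′ UTR interval by the authors with slamdunk 0.4.3, per the file headers. The genome build was hg19 (submitters' processing notes). The deposited values used were the whole-number read counts and T>C read counts of each interval and the counts of conversions and covered T positions. The deposited conversion rate, a fraction of covered T positions, was not used, and the deposited CPM of the authors served only to recover library totals. CPM values of coding genes were computed from the counts, per 1e6 coding reads or coding T>C reads with TMM scaling, and those of noncoding intervals per 1e6 reads of the library total, without TMM.

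Of 29255 intervals, 23086 were coding. Overlapping intervals of a gene were counted once and the others summed. Names that a spreadsheet had turned into dates (45) were restored where possible (44), and 24 chromosome Y copies of pseudoautosomal intervals were not used. Library totals, which set the precision, ran between 24670716 and 42190854 reads. The sources used here name no molecular identifiers, so copies of 1 molecule cannot be told apart.

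Groups came from the labels. edgeR 4.0.16 (R 4.3.3, quasi-likelihood, TMM, filterByExpr, 12 libraries in 1 fit, no replicate block) tested T>C reads, all reads and the labelled share (T>C reads and other reads of each library as 24 columns), for 3 compounds against DMSO and WX-02-23 against WX-02-43. P-values were adjusted by Benjamini-Hochberg over all genes tested. Alternatives were DESeq2 1.42.0, other size factors, no count filter, 2 groups only, a plain sum of intervals, T>C reads scaled to all reads, a replicate block and leaving out each library. Scripts were tested on simulated data. No 2 libraries of a group agreed within sampling noise (chi-square over degrees of freedom 17.3 to 35.4). Named members are all those called, or, where over 12 were called in 1 direction, the 6 largest changes with at least 50 mean reads (20 mean T>C reads in the T>C readouts), the most-read member of each role, the 3 highest and lowest labelled shares in DMSO, core and complex II subunits, isoform genes and genes with over 20% multimapping reads. The other members named by the text (NDUFB4, UQCRB, COX8A, UQCRQ, COX17, ATP5G1, ATP5G2, ATP5G3, NDUFS4 and NDUFB7 among them) were added after their values were seen, unless the rule also holds them. The members and lists were chosen with earlier results of these data known. Some items are not reported here. The 4 members on chromosome 8 are given without sequence.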

Additional observations from a re-analysis of the deposited data

Results flagged for a closer look

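Noncoding intervals near or derived from members were outside the comparisons above, and of 5 such intervals set against DMSO in 3 compound groups, 3 lay above every DMSO library in 1 group each. Among coding genes in total reads 19.1% did so for PladB and 6.9% for WX-02-23. CPM here is per library total. SDHAP1, a pseudogene of the complex II gene SDHA, averaged 96.6 CPM in PladB cells and 20.0 CPM in DMSO cells (88.0, 103 and 98.9 CPM in PladB libraries, 18.0, 26.2 and 15.8 CPM in DMSO libraries). Its T>C reads numbered 303, 397 and 310 among 3578, 3213 and 3106 reads in PladB libraries. DMSO libraries had 352, 432 and 279 among 588, 770 and 501 reads. The T>C counts, which are not scaled, overlapped, while T>C reads were a smaller part of the reads in every PladB library than in any DMSO library. NDUFV2-AS1, an antisense RNA of the complex I core gene NDUFV2, averaged 2.63 CPM in PladB cells and 1.51 CPM in DMSO cells. Its libraries had 2.17, 3.65 and 2.07 CPM in PladB cells and 1.93, 0.580 and 2.02 CPM in DMSO cells. NDUFB2-AS1, an antisense RNA of the accessory gene NDUFB2, averaged 5.75 CPM in WX-02-23 cells and 3.62 CPM in DMSO cells. Its libraries had 5.31, 5.88 and 6.08 CPM in WX-02-23 cells and 0.950, 5.25 and 4.67 CPM in DMSO cells. Both separations were thus narrow, and the lowest DMSO values rested on 17 and 31 reads. No test across genes was run on these intervals.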

How the results depend on the processing

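Of the counts of members called and the pooled shares, 273 values under alternatives stayed within 1.5 times the count or 1 SD and 28 moved. Members called higher in T>C reads after PladB numbered 22, 7 with T>C reads scaled to all reads and 16 to 24 with single libraries left out. Members called lower there numbered 2, 0 in a fit of 2 groups, 1 with a plain sum of intervals, 10 with T>C reads scaled to all reads and 0 to 2 with libraries left out. UQCRQ made the count for WX-02-23 against WX-02-43 1 in place of 0 with DESeq2. In total reads of WX-02-23 the higher count of 1 became 0 with DESeq2, 0 in a fit of 2 groups, 0 with a plain sum, 2 without a count filter (NDUFS7 and UQCRHL) and 0 to 3 with libraries left out. The lower count of 0 became 1 with DESeq2 and 0 to 1 with libraries left out (ATP5L, without DMSO replicate 1). For WX-02-43 the higher count of 0 became 1 without a filter and 0 to 1 with libraries left out (UQCRHL, without DMSO replicate 3), and the lower count 0 to 1 (ATP5L, without DMSO replicate 1). Without DMSO replicate 3 the higher T>C count of WX-02-23 was 1 (0 to 1, NDUFA2). The cause of these moves was not tested.

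Taken as the median of members, the labelled share was 3.63% in WX-02-23, 3.84% in WX-02-43, 2.05% in PladB and 3.85% in DMSO cells, beside pooled values of 4.48%, 4.30%, 3.14% and 4.31%. Medians near 0 changed sign with single libraries left out (range over the 6 such fits, with the library at the end that changed sign): WX-02-23 in T>C reads (-0.0104 without DMSO replicate 2, up to 0.13, and also below 0 without WX-02-23 replicate 2), in total reads (-0.056 to 0.0236 without DMSO replicate 3, and for WX-02-43 0.061 to -0.00126 without DMSO replicate 1) and in labelled share (-0.076 to 0.115 without DMSO replicate 1), WX-02-43 in labelled share (-0.11 to 0.0882 without WX-02-43 replicate 3), and WX-02-23 against WX-02-43 in total reads (-0.036 to 0.00245 without WX-02-43 replicate 1) and in labelled share (0.035 to -0.0439 without WX-02-43 replicate 2). The PladB median in T>C reads was -0.29 when scaled to all reads.

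No shared deviation was seen between same-numbered libraries of different groups, with correlations of -0.0248 to 0.0250 over 18 pairs, and the main fits used no pairing. Whether same-numbered libraries shared a culture or day is not in the labels. Correlations near 0 cannot show that they did not. With a replicate block the counts after PladB were 23 higher and 2 lower in T>C reads (NDUFV3 lost, adjusted p = 0.0524), 72 higher and 2 lower in total reads and 16 lower in labelled share. The median SE of a member's log2 change was 0.58 in T>C reads, 0.50 in labelled share and 0.11 in total reads.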
